A study of Mus musculus with 40 samples.

Results

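Maternal mRNA storage and decay genes are described here in germinal vesicle (GV) oocytes of mice. A set of 10 genes was listed, and a locus of the deposited RNA table belonged to one of them where its symbol was that gene and the overlapping annotated gene lay on the same strand. By this rule 8 loci were found among 38540: Ybx2, Cpeb1, Patl2, Pabpc1l, Zfp36l2, Btg4, Cnot6l and Dcp2. The other 2 genes, Cnot7 and Dcp1a, had no such row. Each was read instead from the locus that shared at least 90% of its span with the gene's RefSeq position, in both directions. They are named as found by position and stay outside the count of 8.

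A fully grown oocyte stops transcription and lives on mRNAs it made earlier. Many of these are stored with short poly(A) tails in complexes with RNA-binding proteins, and meiotic maturation lengthens the tails of some and removes the tails of others through the CCR4-NOT deadenylase, followed by removal of the 5′ cap. The genes described here cover these steps: storage proteins, a poly(A)-binding protein, proteins that bring the deadenylase to its targets, its catalytic subunits, and the decapping enzyme with its activator.

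The study compared Control oocytes with oocytes of 2 mutants, G9a cKO and G9a-Glp cDKO (here cDKO), taken from mice aged 22 to 25 days at 100 to 200 oocytes a sample. G9a and Glp are the usual names of the products of Ehmt2 and Ehmt1, histone methyltransferases that form a complex and make H3K9me2, a mark of repressed chromatin. RNA was measured in 11 libraries: 3 Control and 3 G9a cKO libraries whose titles carry the code GKAO, and 3 Control and 2 cDKO libraries with the code GKAQ. The labels give neither the Cre driver, the strain, nor the meaning of the codes, and do not say which samples share an animal. Libraries were therefore the units of the tests, and the spread between animals is not known. For almost all loci the standard errors follow the trend of spread between libraries with level, not the spread of the gene itself. Each mutant was compared with the controls of its own code, and the effect in cDKO was then compared with the effect in G9a cKO.

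The RNA libraries were scaled to between 1458868 and 2399680 reads. Ehmt1 had 31 and 36 reads in the cDKO libraries and 104 to 173 reads in the other 9 libraries. Ehmt2 was shallow: 9 to 13 reads in the GKAO controls, 5, 11 and 2 reads in G9a cKO, 8 to 30 reads in the GKAQ controls and 5 reads in each cDKO library, so the library labelled G9a cKO replicate 2 lay within the control range. All 11 oocyte markers of a fixed list were detected, at a summed 13538.5 to 17354.7 RPM, which are reads scaled to the library total. Single oocyte markers did change: 5 were called higher and 2 lower in cDKO, beside 8.63% and 7.18% of loci of at least 10 RPM. Their log2 changes in cDKO ran from -0.38 (Kit) to 0.46 (Ddx4). In G9a cKO 2 of the 11 were called higher and 0 lower, beside 2.84% and 2.39% of those loci. The 3 haemoglobin markers matched were at 0 in every library, 7 stroma markers summed to at most 5.00 RPM, and 12 granulosa cell markers summed to between 45.2 and 77.4 RPM. The granulosa sum was 56.3 to 66.0 RPM in cDKO and 58.5 to 70.0 RPM in its controls. Of the 12 markers, Fshr and Inha were called higher in cDKO, at means of 3.73 and 4.86 RPM, and none lower. Cyp19a1, the only 1 with a mean of at least 10 RPM (36.7), lay lower in cDKO without passing (log2 change -0.71, limma adjusted p = 0.0546). The part of these cells in the results below was not tested. In pooled oocytes, fewer cells holding an mRNA and less mRNA in each cell cannot be told apart.

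**Figure D1:**
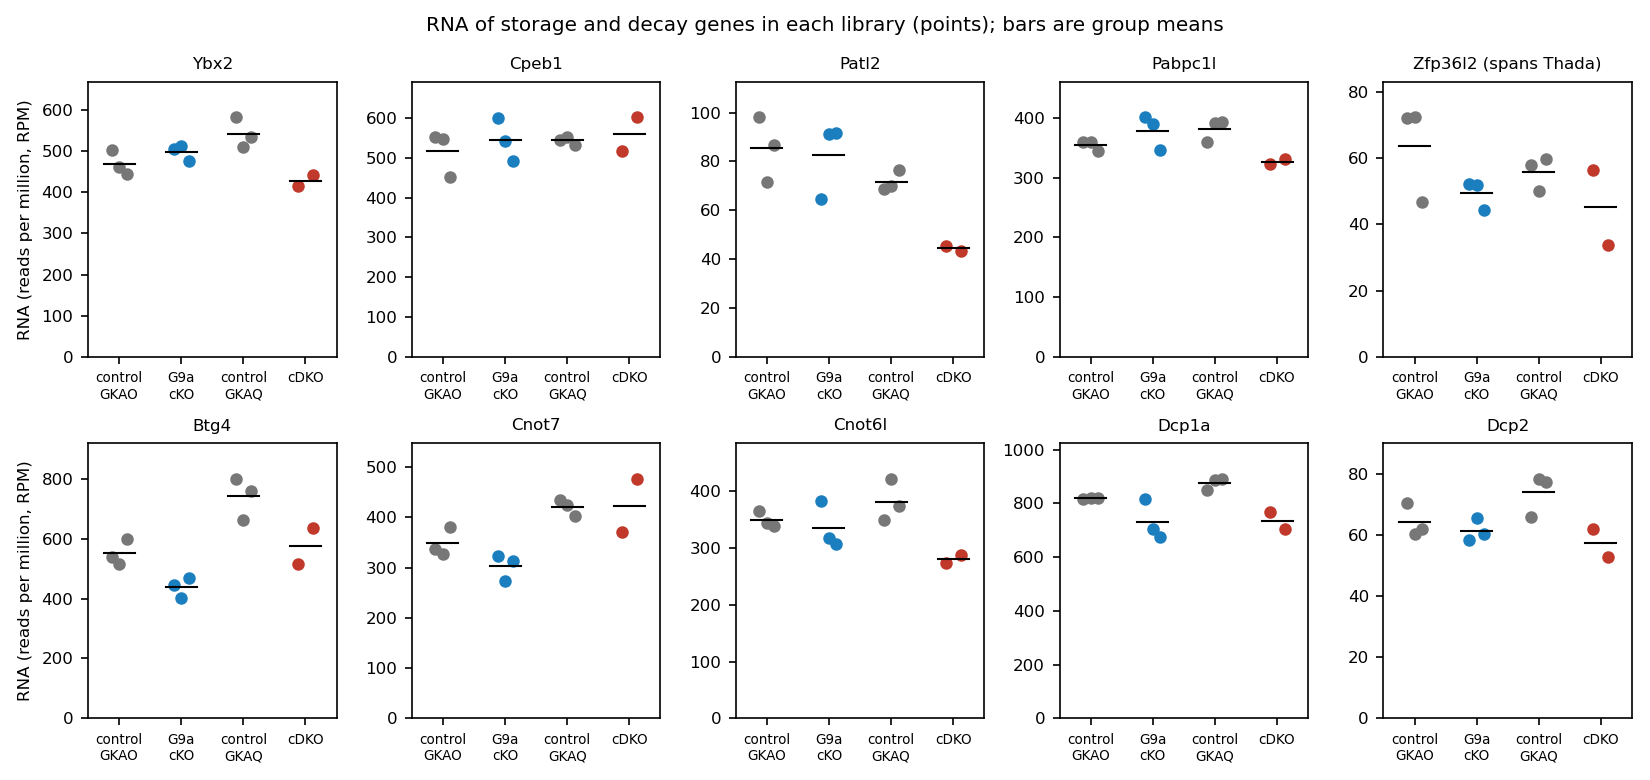
RNA of the 10 genes in RPM (vertical axes, each from 0) in every library (points) of the 4 groups, with group means as bars. In cDKO (red) both points lie below all GKAQ controls for Ybx2, Patl2, Pabpc1l, Btg4, Cnot6l, Dcp1a and Dcp2, and G9a cKO (blue) lies below all GKAO controls for Btg4 and Cnot7.

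In cDKO, 4 of the 8 genes fell: Ybx2 fell by 21.0%, Patl2 fell by 38.0%, Btg4 fell by 22.5% and Cnot6l fell by 26.3%. Dcp1a, found by position, fell by 16.1%. None of the 8 rose. In G9a cKO only Btg4 of the 8 passed the test, and it fell by 20.3%. A gene was called at an adjusted p under 0.05 in limma over all 38540 loci. By the same call, 2.02% of all loci and 7.18% of the 9091 loci with a mean of at least 10 RPM were lower in cDKO, as were 10.7% of the 3815 loci whose mean RPM lay between the lowest and the highest of the 8 genes. In G9a cKO, 0.737% of all loci, 2.39% of those with at least 10 RPM and 2.86% of those in the genes' range of levels were called lower. The median log2 change of the 8 genes in cDKO was -0.36, beside 0.05 over the loci of at least 10 RPM and -0.01 over those in the genes' range of levels. In G9a cKO their median was -0.06, beside 0.01 over the loci of at least 10 RPM. The calls rest on standard errors that limma took almost wholly from the trend of spread with level. Without trend and robust moderation, or on log2(RPM + 1), none of the 8 was called in either mutant. In a fit on the 9091 loci alone, the 4 genes kept their cDKO calls, with adjusted p from 0.00214 to 0.00597, and Btg4 its G9a cKO call (0.0151).

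**Figure D2:**
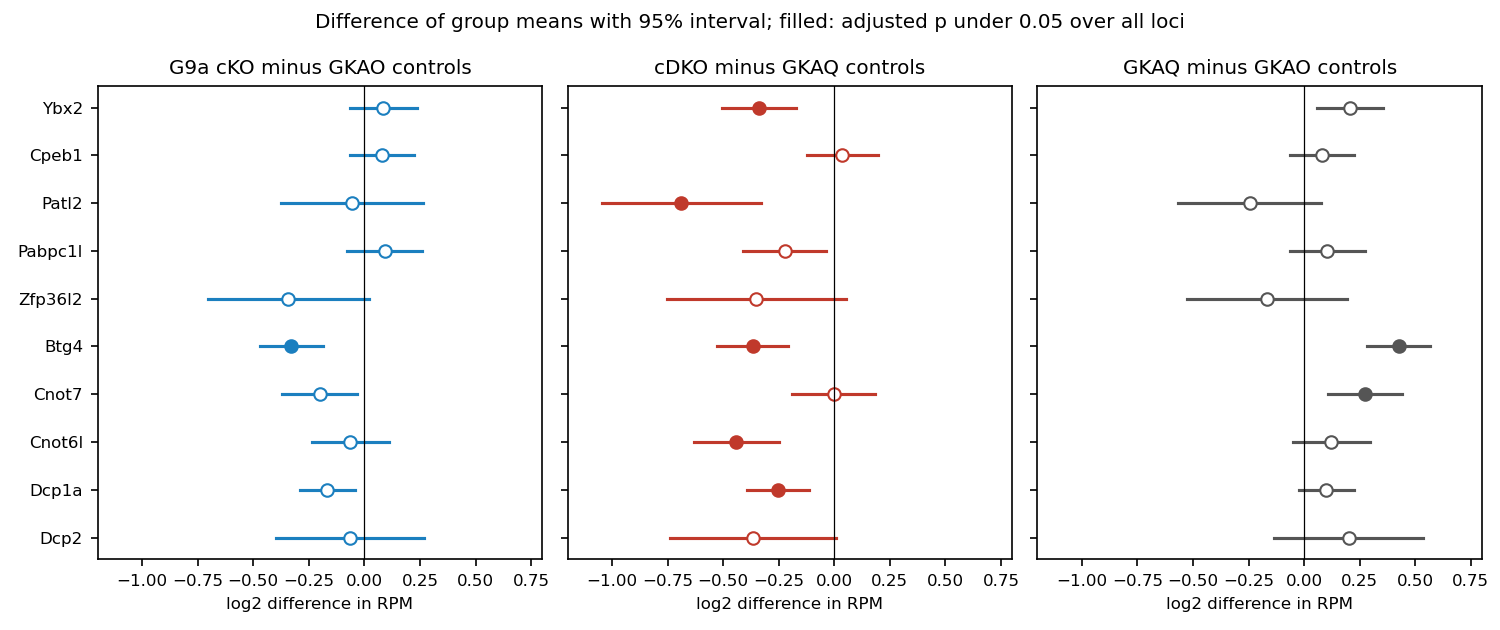
Log2 differences in RPM (horizontal axes) of G9a cKO and cDKO from their own controls, and of the GKAQ from the GKAO controls, with 95% intervals. Filled points passed the adjusted p of 0.05; in cDKO they are Ybx2, Patl2, Btg4, Cnot6l and Dcp1a, and in G9a cKO Btg4.

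Ybx2 encodes MSY2, a Y-box protein that binds and stabilises mRNAs in germ cells and is a main component of the stored mRNA particles of mouse oocytes. Its locus lies on chromosome 11 from 69935613 to 69941606 on the plus strand (GRCm38, as for all positions here). Ybx2 stood at 582.0, 509.7 and 535.3 RPM in the GKAQ controls and at 414.5 and 441.6 RPM in cDKO. Both cDKO libraries were below all 3 of their controls, and below the lowest GKAO control as well. In the GKAO controls the level was 503.1, 462.4 and 443.6 RPM, and in G9a cKO 505.6, 511.3 and 476.5 RPM, so those groups overlapped. The log2 change was -0.34 in cDKO (SE 0.085, adjusted p = 0.00265) and 0.09 in G9a cKO (SE 0.076, adjusted p = 0.432). By group mean the order was GKAQ controls, G9a cKO, GKAO controls and cDKO, with neighbours in that order overlapping apart from the lowest pair.

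The effect on Ybx2 differed between the mutants: the change in cDKO was lower than that in G9a cKO by a log2 difference of -0.42 (SE 0.114, adjusted p = 0.0268). Each mutant was measured under 1 code, so mutant and code cannot be told apart here. Ybx2 also lay higher in all GKAQ than in all GKAO controls, by a log2 difference of 0.21 (limma adjusted p = 0.126, not called). Of the loci of at least 10 RPM, 18.9% lay higher there without overlap. The difference between the effects uses both control series, so this gap enters it. Of the 8 genes, only Ybx2 passed for the difference between the effects. That difference passed for 1.08% of all loci and 3.34% of those with at least 10 RPM. The call was lost in 9 of its 17 alternatives, with adjusted p from 0.00121 to 0.232, including those that left out GKAO control replicate 2 or 3, G9a cKO replicate 1 or 2, GKAQ control replicate 3 or cDKO replicate 1. Without GKAQ control replicate 1 the difference passed for 4 of the 8 genes. The cDKO call itself was lost without cDKO replicate 1 (adjusted p = 0.0709), without GKAQ control replicate 1 (0.0532) and with all 6 controls pooled (0.144), within a range of 6.73e-06 to 0.32 over its alternatives.

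Cpeb1 binds a U-rich element in the 3′ ends of stored mRNAs and controls both their repression and their later polyadenylation. The locus lies on chromosome 7 from 81346966 to 81455080 on the minus strand. Its level was 551.1, 546.7 and 451.8 RPM in the GKAO controls and 599.9, 541.4 and 492.5 RPM in G9a cKO. In the GKAQ controls it was 544.9, 553.0 and 531.8 RPM, beside 516.4 and 601.1 RPM in cDKO. All 4 groups overlapped. The log2 change was 0.04 in cDKO (95% interval -0.12 to 0.20, adjusted p = 0.765) and 0.08 in G9a cKO (-0.07 to 0.22, adjusted p = 0.461). The sign in cDKO turned to -0.09 under trimmed mean scaling, which moved all log2 changes in cDKO by -0.13.

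Patl2 encodes an oocyte RNA-binding protein related to the decapping activator Pat1 and is needed for oocyte maturation. Its locus, on chromosome 2 from 122120108 to 122186189 on the minus strand, also spans the RefSeq genes B2m and Trim69. Patl2 was at 68.5, 70.0 and 76.4 RPM in the GKAQ controls and at 45.6 and 43.3 RPM in cDKO, from 80 and 73 reads. Both cDKO libraries lay below every other library of the study. Levels in the GKAO controls were 98.0, 71.7 and 86.7 RPM, and in G9a cKO 64.7, 91.2 and 91.8 RPM. This was the largest change of the 8 genes in cDKO, a log2 change of -0.69 (SE 0.183, adjusted p = 0.00534). The change in G9a cKO was -0.06 (SE 0.164, adjusted p = 0.834). The gap of -0.63 between the mutants did not pass (adjusted p = 0.169). The cDKO call was lost without cDKO replicate 2 (adjusted p = 0.057) and with voom weights on the recovered reads (0.0825), over a range of 0.000445 to 0.134, and kept with all 6 controls pooled.

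The stretch in front of the RefSeq start (GRCm38.p6) was read for 7 of the 10 genes. Dcp2 was left out of this step, and no stretch was read for Cnot7 and Zfp36l2. It is shown whole for Patl2, the gene with the largest change, since its 250 bases lie outside the transcribed locus. CCAAT boxes are in capitals, here on the opposite strand (ATTGG).
Patl2, chr2:122186190-122186439, minus strand: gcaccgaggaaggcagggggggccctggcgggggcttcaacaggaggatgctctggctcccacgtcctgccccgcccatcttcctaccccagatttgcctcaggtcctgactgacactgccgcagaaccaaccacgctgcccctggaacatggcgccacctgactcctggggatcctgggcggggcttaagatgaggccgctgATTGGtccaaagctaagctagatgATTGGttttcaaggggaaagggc

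The CCAAT boxes of the other genes that have one, and the TATA box of Cpeb1, are shown in short windows, because the RefSeq start of these genes lies inside the deposited locus.
Ybx2, chr11:69935747-69935775, plus strand: tgcgcggctacgATTGGccggcggccggg
Ybx2, chr11:69935800-69935828, plus strand: cagccgactgcgATTGGcctcggctcagg
Btg4, chr9:51115939-51115967, plus strand: tggggtgagcaaCCAATcggccttaacag
Pabpc1l, chr2:164024986-164025014, plus strand: ggcattttacccATTGGgccatcttccca
Cpeb1, chr7:81454771-81454800, minus strand: gcgccgcggagcTTTATAagccgccggggt

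The motifs were searched on both strands in the 250 bases before the start. The start taken was the one nearest the beginning of the deposited locus. For all of these genes but Patl2, Cnot6l and Dcp1a included, it lies inside the RefSeq span of the gene. Their stretches thus lie partly or wholly within the annotated gene. CCAAT was found in Ybx2, Patl2, Btg4 and Pabpc1l, with 2 matches each in Ybx2 and Patl2, and it occurs in 33.8% of all 32851 promoters in the table. TATAAA was found in Cpeb1 alone of these 7 and occurs in 12.4% of all. Neither CCAAT nor TATAAA was found in Cnot6l or Dcp1a. The genes that fell in cDKO include stretches with and without a CCAAT box, and Pabpc1l, which has one, did not pass. No match was found for TAATTG or TAATTA, present in 11.3% of all promoters, in any of the 7. Base composition ranged widely among the genes that fell: Cnot6l had 82.4% G or C and 37 CpG sites, Btg4 38.0% and 1 CpG site, beside medians of 52.4% and 6 over all promoters.

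Pabpc1l encodes the embryonic poly(A)-binding protein, which takes the place of the somatic form in oocytes. The locus lies on chromosome 2 from 164024814 to 164050538 on the plus strand. Its level was 360.1, 392.1 and 393.3 RPM in the GKAQ controls and 322.8 and 330.8 RPM in cDKO, without overlap. The log2 change of -0.22 in cDKO did not pass (95% interval -0.41 to -0.04, adjusted p = 0.171), but did under 2 alternatives: at -0.32 with levels centred on the loci of at least 10 RPM (adjusted p = 0.0212) and at -0.35 under trimmed mean scaling (0.00795). In the GKAO controls Pabpc1l stood at 360.6, 359.3 and 345.7 RPM and in G9a cKO at 401.2, 390.0 and 346.1 RPM, with a log2 change of 0.09 (adjusted p = 0.456). Of the 8 genes, 6 lay lower in cDKO without overlap, as did 21.2% of the loci of at least 10 RPM.

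Zfp36l2 binds AU-rich elements and recruits CCR4-NOT. Its row cannot be read as that gene alone: the deposited locus runs on chromosome 17 from 84183901 to 84466256 on the minus strand, only 1.43% of it lies in the RefSeq span of Zfp36l2, and it covers Thada. The row stood at 72.0, 72.3 and 46.9 RPM in the GKAO controls and at 52.2, 51.9 and 44.3 RPM in G9a cKO. It stood at 57.8, 50.01 and 59.6 RPM in the GKAQ controls and at 56.4 and 33.8 RPM in cDKO. Groups overlapped in both comparisons. The log2 changes were -0.34 in G9a cKO (adjusted p = 0.23) and -0.35 in cDKO (adjusted p = 0.449), neither past the threshold. Without cDKO replicate 2 the change in cDKO was 0.02.

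Btg4 is an oocyte adaptor that links CCR4-NOT to translating mRNAs and is needed for the clearance of maternal mRNA. Of the 8 genes it was the one that fell in both mutants. The locus lies on chromosome 9 from 51115873 to 51125362 on the plus strand, and 42.7% of it lies in the RefSeq span. In the GKAO controls its level was 538.1, 516.9 and 598.9 RPM, and in G9a cKO 445.9, 402.6 and 469.0 RPM. All 3 G9a cKO libraries lay below all 3 controls, as was so for 11.6% of the loci of at least 10 RPM. In the GKAQ controls the level was 800.1, 664.3 and 760.1 RPM, and in cDKO 516.4 and 635.5 RPM, again without overlap. The log2 change was -0.33 in G9a cKO (SE 0.072, adjusted p = 0.000976) and -0.37 in cDKO (SE 0.081, adjusted p = 0.000297). The effects differed by -0.04 (95% interval -0.25 to 0.17, adjusted p = 0.839).

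The level of Btg4 also differed between the control series. It was higher in the GKAQ than in the GKAO controls by a log2 difference of 0.43 (SE 0.072, adjusted p = 5.31e-07), as large as the changes in the mutants. Btg4 was the only one of the 8 genes called between the controls, where 3.87% of all loci and 14.8% of those with at least 10 RPM were called. The cDKO libraries lay on either side of the GKAO control range of 516.9 to 598.9 RPM, and with all 6 controls pooled the cDKO change was -0.15 (adjusted p = 0.477). Without cDKO replicate 1 it was -0.22 (adjusted p = 0.232), with adjusted p from 2.28e-07 to 0.477 over the alternatives. The G9a cKO call was lost without G9a cKO replicate 2 (adjusted p = 0.081) and without GKAO control replicate 3 (0.0535), over a range of 8.40e-09 to 0.345.

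A short locus on the opposite strand inside Btg4 had 2 to 15 reads in any library, so few reads of this region were counted to the other strand. Its 11, 14 and 15 reads in the GKAQ controls were the highest of the 11 libraries, as were the Btg4 levels there.

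Cnot7, a catalytic subunit of CCR4-NOT, was found by position on chromosome 8 from 40492538 to 40515848 on the minus strand, where the table gives the symbol Zdhhc2. The row with the symbol Cnot7 lies on the plus strand over Vps37a and was not used. Levels were 337.9, 327.3 and 380.9 RPM in the GKAO controls and 322.7, 273.7 and 313.6 RPM in G9a cKO, without overlap. The log2 change of -0.20 in G9a cKO did not pass (SE 0.085, adjusted p = 0.23). In the GKAQ controls Cnot7 stood at 434.9, 425.1 and 403.2 RPM, and in cDKO at 370.1 and 476.6 RPM, on either side of its controls (log2 change -0.003, 95% interval -0.19 to 0.18). Cnot7 was called higher in the GKAQ than in the GKAO controls (log2 difference 0.27, adjusted p = 0.0374), a call lost in 9 of 17 alternatives, with adjusted p up to 0.466, among them without GKAO control replicate 1 or 2 and without any 1 GKAQ control.

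Cnot6l is the other catalytic subunit described here. Its locus lies on chromosome 5 from 96068370 to 96162932 on the minus strand. It stood at 348.8, 421.7 and 374.1 RPM in the GKAQ controls and at 272.7 and 288.1 RPM in cDKO. Both cDKO libraries were the lowest of all 11. In the GKAO controls the level was 366.0, 344.6 and 338.1 RPM, and in G9a cKO 383.7, 316.8 and 307.5 RPM, overlapping. The log2 change was -0.44 in cDKO (SE 0.098, adjusted p = 0.000436) and -0.06 in G9a cKO (SE 0.088, adjusted p = 0.627). The difference between the effects, -0.38, did not pass (adjusted p = 0.169). Cnot6l kept its cDKO call without any single library and with all 6 controls pooled (adjusted p = 0.0131), and the voom weights gave 0.0356, within a range of 1.50e-06 to 0.243.

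Dcp1a, the activator of the decapping enzyme, was found by position on chromosome 14 from 30478784 to 30529371 on the plus strand, where the table gives the symbol Cacna1d. It stood at 851.6, 886.8 and 891.2 RPM in the GKAQ controls and at 767.5 and 704.9 RPM in cDKO, without overlap. The log2 change in cDKO was -0.25 (SE 0.071, adjusted p = 0.00932). It was lost without cDKO replicate 2 (adjusted p = 0.209) and without GKAQ control replicate 2 (0.052) or 3 (0.0619), over a range of 1.07e-05 to 0.549. In the GKAO controls Dcp1a varied little, at 816.4, 820.6 and 818.6 RPM, and the G9a cKO libraries were at 816.6, 703.6 and 675.2 RPM (log2 change -0.17, adjusted p = 0.198).

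Dcp2 is the enzyme that removes the cap. Its locus lies on chromosome 18 from 44377969 to 44424969 on the plus strand. Levels were 66.0, 78.3 and 77.4 RPM in the GKAQ controls and 62.1 and 52.8 RPM in cDKO, without overlap. The log2 change of -0.36 did not pass (95% interval -0.74 to 0.01, adjusted p = 0.335). In the GKAO controls Dcp2 stood at 70.6, 60.2 and 62.1 RPM and in G9a cKO at 58.4, 65.6 and 60.3 RPM (log2 change -0.06, adjusted p = 0.816). A locus on the opposite strand, at 59.9 to 112 RPM, overlaps its end. Opposite-strand loci also overlap those of Cnot7 and Dcp1a, and how strand was used in the counting is not given in the sources used here.

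Only 1 control and 1 cDKO library share a number in their titles, 55, which the labels do not explain. Within that pair the ratio of cDKO to control was 0.867 for Ybx2, 0.618 for Patl2 and 0.683 for Cnot6l. It was 0.957 for Btg4, which thus differed little in that pair, and 0.795 for Dcp1a. The ratio was above 1 for Cpeb1, at 1.09, and for Cnot7, at 1.12. A single pair gives no test.

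Across the 11 libraries, the log2 levels of Btg4 and Cnot7 had a Pearson correlation of 0.872, the highest of any pair of the 10 genes, followed by 0.801 for Pabpc1l and Cnot6l. These are descriptions over libraries that share groups and scaling. Among 6940 annotated loci of at least 10 RPM, the patterns most like Btg4 were those of E330034G19Rik (r = 0.970), Ywhae (0.969) and Gm10430 (0.964), the last a locus over the RefSeq gene Cracd. E330034G19Rik shared its steps between groups, with log2 changes of -0.32 in G9a cKO and -0.41 in cDKO and a difference of 0.53 between the controls. Closest to Ybx2 were Golga4 (0.908), R3hdm2 (0.894) and Rere (0.881), and closest to Cpeb1 were Diap1 (0.889), Wdtc1 (0.850) and Pkp4 (0.846). All 3 genes closest to Ybx2 were also called lower in cDKO, with log2 changes of -0.68 for Golga4, -0.32 for R3hdm2 and -1.02 for Rere. These loci were picked as most alike over the same 11 libraries, cDKO among them. Steps shared with Btg4 or Ybx2 thus follow from the choice and are no separate result.

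Other genes of the pathway were read from 8 lists, of which 84 genes matched a locus. In cDKO 7 of the 84 were called higher and 10 lower, beside 4.32% of all loci higher and 2.02% lower. In G9a cKO 3 were called higher and 2 lower, beside 1.05% and 0.737% of all loci. Most of these genes are well expressed: 73 had a mean of at least 10 RPM. Of the 73, 5 were called higher and 10 lower in cDKO, beside 8.63% and 7.18% of the loci of that level. In G9a cKO 3 of the 73 were higher and 1 lower, beside 2.84% and 2.39%. The median log2 change of the 84 was -0.02 in cDKO and -0.001 in G9a cKO. The difference between the effects was called for 4, all lower in cDKO: Fip1l1, Igf2bp2, Rbpms2 and Ybx1. It was called lower for 0.397% of all loci and 1.58% of those with at least 10 RPM. The trimmed mean scaling moved the split of all calls in cDKO from 1665 higher and 779 lower to 1180 higher and 1280 lower.

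**Figure D3:**
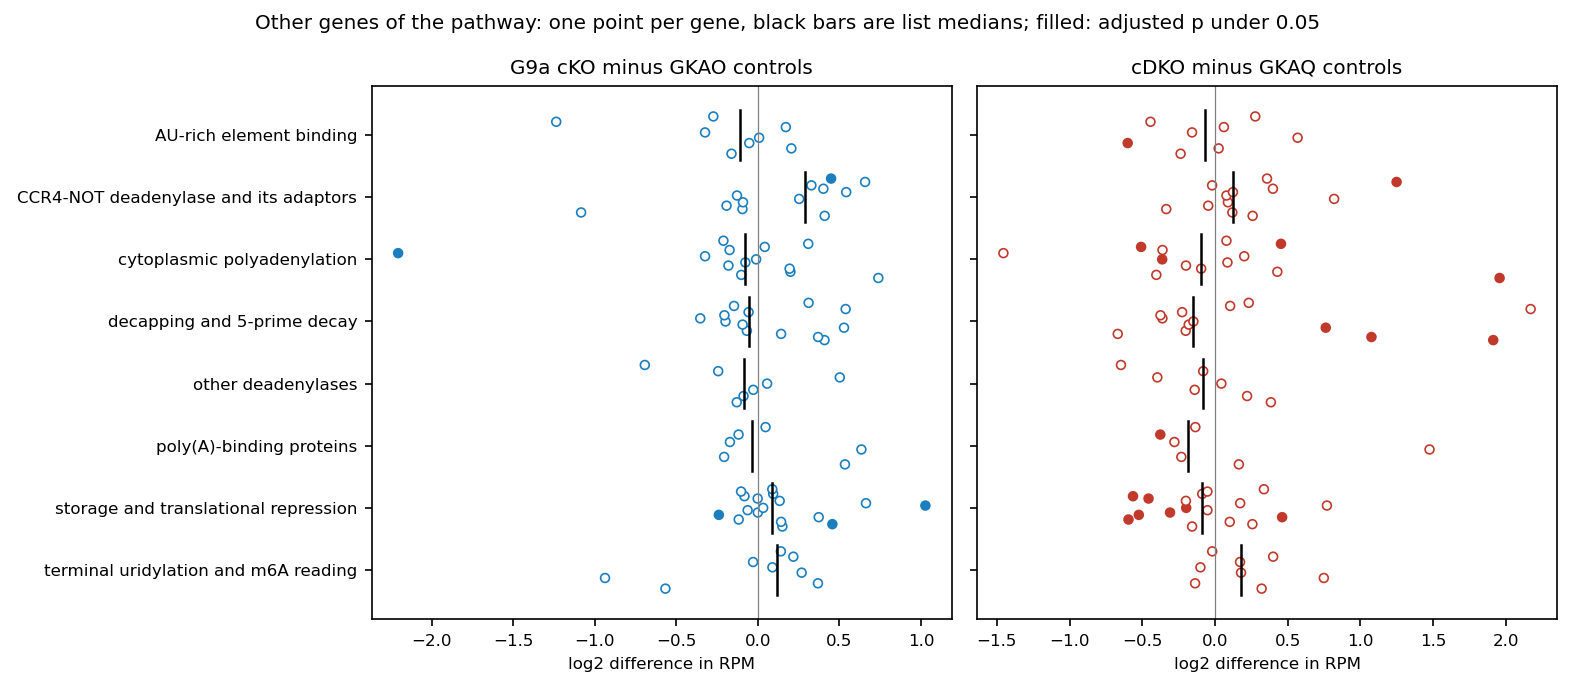
Log2 difference in RPM (horizontal axes) of each matched gene (points) in 8 pathway lists, in G9a cKO and in cDKO, with list medians as black bars and called genes filled. Points far from 0 include genes of a few reads; in the storage list, 6 genes were called lower and 1 higher in cDKO.

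Storage and translational repression was the list with the most calls. Of its 17 matched genes, 6 fell in cDKO (Dazl, Eif4e1b, Igf2bp2, Lsm14b, Rbpms2 and Ybx1), 1 rose (Ddx4) and 10 did not pass. All 17 had a mean of at least 10 RPM, a level at which 7.18% of loci were called lower. Its median log2 change was -0.09. Igf2bp2, Lsm14b, Rbpms2, Ddx4 and Caprin2 fall outside the naming rule and are named after their values were seen. The same holds for Cpeb2, Msi2, Dcp1b and Xrn1 below. The number of lower calls was 5 or 6 under most alternatives, 4 with voom weights, 3 on log2(RPM + 1) and 0 without trend and robust moderation. No gene of the list was called higher with centring, trimmed mean scaling, log2(RPM + 1), without trend and robust moderation, or without GKAQ control replicate 1 or 2. In G9a cKO the list had 2 genes higher, Caprin2 and Nanos1, and 1 lower, Eif4e1b. The higher calls ranged from 0 to 2 over the alternatives, and the lower call was lost in 9 of 20. The control series also differed in it, with 7 of the 17 genes higher and 4 lower in the GKAQ than in the GKAO controls, beside 1.96% higher and 1.91% lower of all loci and 7.42% and 7.38% of those with at least 10 RPM.

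Dazl, a germ cell RNA-binding protein that controls translation, stood at 183.5, 185.4 and 186.3 RPM in the GKAQ controls and at 119.0 and 126.3 RPM in cDKO. Its log2 change was -0.59 (SE 0.136, adjusted p = 0.000691). The GKAO controls were at 138.5 to 157.0 RPM, still above both cDKO libraries. The locus overlaps another on the opposite strand, as do those of Nanos1, Hnrnpd, Papolg, Fip1l1 and Lsm1.

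Ybx1, the somatic Y-box relative of Ybx2, was at 402.2, 359.2 and 401.7 RPM in the GKAQ controls and at 253.4 and 270.9 RPM in cDKO. Its log2 change was -0.56 (SE 0.103, adjusted p = 5.03e-06), and the change differed from that in G9a cKO by -0.48 (adjusted p = 0.0472). Eif4e1b, an oocyte form of the cap-binding protein that joins repressed mRNA, was at 873.6, 934.7 and 810.3 RPM in the GKAQ controls and at 573.9 and 640.2 RPM in cDKO. Its log2 change was -0.52 in cDKO (adjusted p = 6.32e-10) and -0.24 in G9a cKO (adjusted p = 0.0247). The G9a cKO call was lost in 9 of 20 alternatives, with adjusted p up to 0.461, among them without GKAO control replicate 1 or 2, without G9a cKO replicate 2 or 3 and with the title number as a block (0.192). Both genes were higher in the GKAQ than in the GKAO controls, by 0.41 (adjusted p = 0.00045) and 0.33 (adjusted p = 8.83e-05), so their cDKO values overlapped the GKAO controls. In cDKO, the calls of Dazl, Ybx1 and Eif4e1b were kept in 18 of 19 alternatives and lost without trend and robust moderation. Nanos1, a translational repressor, rose in G9a cKO from 17.1, 12.04 and 9.38 RPM to 27.1, 27.9 and 21.7 RPM (log2 change 1.03, adjusted p = 0.011), and the call was lost in 7 of 20 alternatives, among them without G9a cKO replicate 1 or 2 and without GKAO control replicate 3.

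Among genes of cytoplasmic polyadenylation, 2 of 13 fell in cDKO and 2 rose, beside 2.02% of all loci called lower and 4.32% higher. Fip1l1, a subunit of the cleavage and polyadenylation factor, was at 3146.2, 2853.3 and 2843.6 RPM in the GKAQ controls and at 2390.3 and 2193.4 RPM in cDKO. It fell by 0.36 on the log2 scale (adjusted p = 3.53e-14), while the change in G9a cKO was -0.01, and the difference between them passed (adjusted p = 1.99e-06). The cDKO call of Fip1l1 was kept in 18 of 19 alternatives. It was lost in limma without trend and robust moderation (adjusted p = 0.278). The poly(A) polymerase Papolg fell by 0.51 (adjusted p = 0.0361) and the scaffold Sympk rose by 0.45 (adjusted p = 0.0251). Their calls were lost in 7 and 9 of 19 alternatives; for Papolg these included the fits without GKAQ control replicate 2 or 3 or cDKO replicate 1, and for Sympk those without GKAQ control replicate 1 or 3 or either cDKO replicate. Papolg also differed between the control series, by 0.87 (adjusted p = 6.36e-07), and its cDKO change was -0.075 with all 6 controls pooled (adjusted p = 0.874). Cpeb2, also called higher, had a mean of 3.70 RPM, and Msi2, the 1 gene of the list called in G9a cKO, where it was lower, a mean of 3.81 RPM.

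Decapping and 5′ decay had 3 of 13 genes higher in cDKO and none lower, beside 4.32% and 2.02% of all loci. Of the loci of at least 10 RPM, 8.63% were called higher and 7.18% lower. The median log2 change of the list was -0.15. The helicase Ddx6, which both represses mRNA and aids decapping, was at 19.5, 20.0 and 22.2 RPM in the GKAQ controls and at 35.9 and 52.2 RPM in cDKO (log2 change 1.08, adjusted p = 0.00246), a call lost without cDKO replicate 2. Lsm1, a subunit of the ring that binds deadenylated mRNA, was called higher by 0.76 (adjusted p = 0.0236), but its locus also spans Star and the call was lost in 8 of 19 alternatives, among them without GKAQ control replicate 1 or cDKO replicate 1. Dcp1b had a mean of 5.31 RPM. Neither Xrn1 nor the other 9 genes of the list passed.

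Of 12 matched genes of CCR4-NOT and its adaptors, 1 was called in each mutant, both of the Tob family that binds the deadenylase. Of all loci, 1.05% were called higher in G9a cKO, and 4.32% higher and 2.02% lower in cDKO. Tob2 rose in G9a cKO from 163.1, 168.6 and 141.8 RPM to 218.3, 224.0 and 202.9 RPM (log2 change 0.45, adjusted p = 0.00658), a call lost without GKAO control replicate 3 or G9a cKO replicate 2. Tob1 rose in cDKO from 13 to 28 reads a library to 43 and 28 reads (log2 change 1.248, adjusted p = 0.021), and lost the call in 6 of 19 alternatives, among them without GKAQ control replicate 1 or 2 or cDKO replicate 1. Hnrnpd, the 1 called of 8 genes that bind AU-rich elements, fell in cDKO by 0.60 (adjusted p = 8.21e-05), from 261.5, 263.8 and 226.2 RPM to 138.9 and 195.6 RPM. The call was lost in 5 of 19 alternatives, among them without cDKO replicate 1, with voom weights and with all 6 controls pooled. Hnrnpd was also higher in the GKAQ than in the GKAO controls, by 0.46 (limma adjusted p = 0.00154). The GKAO controls, at 220.7, 183.3 and 147.7 RPM, overlapped cDKO. Paip2, the 1 called of 6 genes around poly(A)-binding proteins, inhibits these proteins, and its locus also spans Slc23a1. It fell by 0.38 in cDKO (adjusted p = 0.0134). Its level differed more between the control series (log2 difference 0.81), the cDKO change was 0.03 with all 6 controls pooled, and the call was lost without GKAQ control replicate 1 or cDKO replicate 1. None of 7 other deadenylases and none of 8 genes of uridylation and m6A reading was called in either mutant.

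H3K9me2 over the same loci was read from ULI-nChIP libraries, a low-input form of native chromatin immunoprecipitation, 2 for each genotype, as the mean RPM of the 10 kb windows that a locus overlaps. The levels and percentiles were not corrected with the input or IgG libraries of the series. Over Cnot6l the controls were at 2.45 and 2.08 RPM a window, at percentiles 4.49 and 2.13 of annotated loci, G9a cKO at 2.99 and 2.21, and cDKO at 3.43 and 2.46. Over Patl2 they were at 3.69 and 4.14, G9a cKO at 3.77 and 3.48, and cDKO at 3.23 and 3.49. Over Btg4 they were at 3.40 and 3.84, G9a cKO at 2.69 and 4.06, and cDKO at 4.35 and 4.78. Over Ybx2 they were at 4.04 and 3.61, G9a cKO at 2.42 and 3.61, and cDKO at 3.77 and 3.45.

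None of the 8 loci was called in either mutant, and neither was any of the 14966 annotated loci tested (0% in limma, with 3618 in G9a cKO and 2783 in cDKO at an unadjusted p under 0.05). The highest log2 changes in cDKO were 0.48 over Pabpc1l (adjusted p = 0.283), 0.48 over Cpeb1 (0.281) and 0.43 over the Zfp36l2 locus (0.255), beside a median of 0.15 over all loci. RPM are relative within a library, so a change of the mark across the whole genome cannot be read from them. The G9a cKO and cDKO comparisons share both controls. Reads per gene and library ran from 6 to 1791, with the control libraries scaled to 7048784 and 19128881 reads and the mutant libraries to between 1109191 and 1881848.

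**Figure D4:**
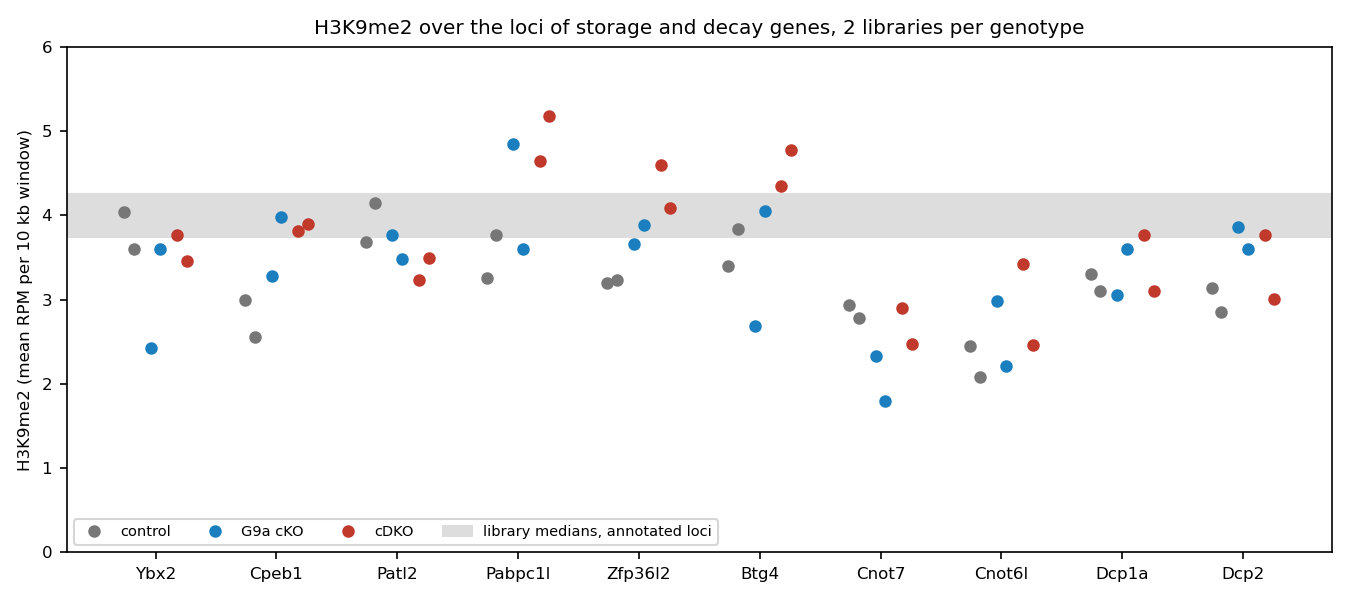
H3K9me2 over the loci of the 10 genes (mean RPM of 10 kb windows, vertical axis from 0), with 2 points a genotype. The grey band spans the library medians over annotated loci, 3.75 to 4.25; Cnot7 and Cnot6l lie below it in all libraries.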

How the data were processed

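The RNA and H3K9me2 tables were deposited by the authors as log2 RPM, in which a locus or window with 0 reads carries the value of 0.9 read; this was found from the values, and the steps are not given in the sources used here. Whole reads were recovered for 100% of values (within 0.01 read). The submitters' processing notes name Trim Galore, Bowtie2, HISAT2 2.1.0, Bismark 0.19.0 and GRCm38; the strand setting of the counting is not given in the sources used here. Loci are assembled transcripts, so a locus can span several genes. RPM are not per length, and levels were not compared between genes.

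The members and gene lists were chosen with earlier results of these data known. Group means over the 11 RNA libraries were fitted to the log2 RPM of 38540 loci in limma 3.58.1 (R 4.3.3), with trended and robust variance moderation and Benjamini-Hochberg adjustment over all loci. A call is an adjusted p under 0.05. The prior degrees of freedom were infinite for 97.7% of loci, so standard errors follow the variance trend; over the 9091 loci with a mean of at least 10 RPM the median was 32.2, beside 7 residual degrees of freedom. H3K9me2 was tested in the same way over loci. Not used were 4 columns of H3K9me2 values. Alternatives were centring, trimmed mean scaling, log2(RPM + 1), the filter at 10 RPM, voom on recovered reads, no trend, each library left out, pooled or separate controls and a title-number block. Named besides the 10 genes were, from each list, up to 4 called genes of at least 10 RPM by size of change, and the 3 loci most like Btg4, Cpeb1 and Ybx2. Some other list genes were named after their values were seen. The fit was run on simulated reads drawn with the same dispersion at every locus. That setting cannot show how the fit does at loci whose spread departs from the trend. Python 3.11.15 and RefSeq tables of GRCm38.p6 were used for positions and sequences.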

Additional observations from a re-analysis of the deposited data

Results flagged for a closer look

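Ybx2 stood out because its effect differed between the mutants: the change in cDKO minus the change in G9a cKO was -0.42 on the log2 scale (SE 0.114, limma adjusted p = 0.0268), with both cDKO libraries below their controls and the G9a cKO libraries overlapping theirs. The call was lost in 9 of its 17 alternatives, with adjusted p up to 0.232. Ybx2 lay higher in the GKAQ than in the GKAO controls by 0.21 without passing (limma adjusted p = 0.126), and this gap enters the difference. Each mutant was measured under a single code, so mutant and code cannot be told apart.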

How the results depend on the processing

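Of the single-gene values recomputed under the alternatives, 968 kept their direction and their side of the threshold, 8 gained a call and 34 changed sign; a call was lost in 45 where a library was left out and in 70 under the other alternatives. On log2(RPM + 1), and without trend and robust moderation, 0 of the 8 genes were called in any comparison, and the storage list had 3 and 0 lower calls in cDKO. Voom weights called 0 in G9a cKO and 2 in cDKO, with 0 whose effects differed. Pooling all 6 controls called 2 in cDKO, and trimmed mean scaling called 2 whose effects differed. Leaving out each library in turn gave 0 to 1 calls in G9a cKO, 2 to 4 in cDKO (2 without cDKO replicate 1), 0 to 4 between the effects (4 without GKAQ control replicate 1) and 1 between the controls. The cause was not tested.

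The values that changed sign were log2 changes that had not passed, Paip2 apart. Pooling all 6 controls gave -0.018 for Ybx2 and 0.066 for Patl2 in G9a cKO, and 0.134 for Cnot7 and 0.031 for Paip2 in cDKO. Cpeb1 in cDKO was at -0.058 with centring and -0.093 with trimmed mean scaling, Zfp36l2 between the effects at 0.0096 with voom, and H3K9me2 over Cnot6l in G9a cKO at -0.085 with windows at least 50% inside the locus. Leaving out single libraries gave, in G9a cKO, -0.016 to 0.148 for Cpeb1, -0.177 to 0.110 for Patl2 and -0.112 to 0.0044 for Dcp2. In cDKO it gave -0.073 to 0.146 for Cpeb1, -0.720 to 0.018 for Zfp36l2 and -0.185 to 0.180 for Cnot7. Between the effects it gave -0.150 to 0.069 for Cpeb1, -0.379 to 0.360 for Zfp36l2 and -0.189 to 0.110 for Btg4, and between the controls -0.015 to 0.128 for Cpeb1. For H3K9me2 it gave -0.426 to 0.166 over Btg4 and -0.029 to 0.403 over Cnot6l in G9a cKO, and -0.164 to 0.001 over Ybx2 in cDKO.

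In the GKAO libraries the deviations of same-numbered control and G9a cKO libraries correlated at 0.113, 0.074, 0.050 and 0.011. All differently numbered pairs lay lower, from -0.122 to 0.003, so structure shared by title number is possible. The main fit did not use the numbers, whose meaning the labels do not give. With the title number as a replicate block in limma, 1 of the 8 genes was called in G9a cKO (Btg4, log2 change -0.35, adjusted p = 0.000729). Only 2 cDKO libraries were measured, and where 1 is left out the other is assumed to vary like the other groups.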
